A study of Mus musculus with 4 samples.

Results

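NK-cell receptors, their signalling adaptors, the genes of the sort markers and the transcription factors of the NK lineage form the set of 45 genes described here. They were chosen by gene symbol from the 21993 genes of each expression file, and all 45 were found once. RNA was sequenced from 4 libraries of cells that the labels give as uterine NK cells of female mice at gd11.5 (day of gestation), sorted as CD3-, CD45+ and NK1.1+ after mating with B6 males. The first genotype carried Cre recombinase under control of Ncr1 (called Ncr1Cre, n = 2 libraries) and the second lacked Cre (called control, n = 2 libraries). Both genotypes were homozygous for the same floxed allele, so Cre is the difference between them that the labels give. Cre from Ncr1 acts in cells that have switched on Ncr1, which marks NK cells and some other innate lymphoid cells. Whether the 2 libraries of each genotype are from different mice or from pools is not stated in the labels, so p-values reflect only how far these libraries differ, which may be technical variation. The unit is FPKM (fragments for each kilobase of transcript after scaling for library depth), and the comparison asks how these genes differ between Ncr1Cre and control libraries.

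NK cells are lymphocytes that weigh signals from activating and inhibitory receptors on their surface. Many of the activating receptors have no signalling tail of their own and work through small adaptors (DAP12, DAP10 and the Fc receptor gamma chain), while inhibitory receptors carry tyrosine motifs that recruit phosphatases. In the mouse most of these receptors are C-type lectin-like proteins encoded in the NK gene complex, and many read MHC class I. The lineage depends on interleukin 15, read through the chain that Il2rb encodes, and on the transcription factors Nfil3, Id2, Eomes and T-bet. In the pregnant uterus NK cells gather in the decidua, where they are known for their part in remodelling the spiral arteries.

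The stretches of 250 bases before the transcription start of 4 of these genes are shown because they belong to the Cre driver, to a granule gene of NK cells and to a receptor and an adaptor that were higher in Ncr1Cre. They come from RefSeq on build GRCm38.p6, which is not the build of the expression values. Capitals mark any match, on either strand, to TGTGGT (a motif of RUNX factors), TCACACC (a T-box motif) or GAGGAA (the core of the PU.1 motif), and the motifs do not overlap one another here.
Ncr1: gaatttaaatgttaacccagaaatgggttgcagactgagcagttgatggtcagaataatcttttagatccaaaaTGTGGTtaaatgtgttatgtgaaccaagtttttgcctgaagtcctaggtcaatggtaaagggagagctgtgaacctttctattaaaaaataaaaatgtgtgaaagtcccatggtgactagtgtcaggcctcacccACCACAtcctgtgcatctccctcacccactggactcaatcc
Nkg7: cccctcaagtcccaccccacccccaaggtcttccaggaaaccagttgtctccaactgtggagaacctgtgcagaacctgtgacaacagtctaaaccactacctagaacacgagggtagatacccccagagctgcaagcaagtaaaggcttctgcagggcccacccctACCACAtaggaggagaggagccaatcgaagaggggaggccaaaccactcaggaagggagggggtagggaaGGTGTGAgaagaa
Fcgr3: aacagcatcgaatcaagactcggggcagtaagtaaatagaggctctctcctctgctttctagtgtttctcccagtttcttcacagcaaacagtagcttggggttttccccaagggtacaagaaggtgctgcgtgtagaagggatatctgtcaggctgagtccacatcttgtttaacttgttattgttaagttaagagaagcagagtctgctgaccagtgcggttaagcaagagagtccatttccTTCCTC
Fcer1g: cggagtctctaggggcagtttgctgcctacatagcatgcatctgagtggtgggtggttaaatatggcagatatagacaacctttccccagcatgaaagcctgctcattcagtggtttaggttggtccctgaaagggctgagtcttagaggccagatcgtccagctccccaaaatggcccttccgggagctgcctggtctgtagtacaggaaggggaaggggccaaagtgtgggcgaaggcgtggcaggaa
The stretch of Ncr1 lies at chr7:4337465-4337714 on the plus strand and holds 2 RUNX matches. The start is that of the RefSeq entry, and for Ncr1, unlike the other 3, the bases that follow it were not found in a GENCODE M21 transcript of the gene. Nkg7, at chr7:43436888-43437137 on the plus strand, holds 1 RUNX match and 1 T-box match. Fcgr3, at chr1:171059404-171059653 on the minus strand, holds 1 PU.1 match next to the start. Fcer1g, at chr1:171234350-171234599 on the minus strand, holds none of the 3. A promoter entry was found for 36 of the 45 genes. The RUNX letters were in 13 of these 36 and in 14.2% of all 27025 promoters, the PU.1 letters in 12 of 36 and in 23.1%, and the T-box letters in 1 of 36 and in 3.31%. Of the 13 genes with the RUNX letters 11 had too low a mean level to be tested, and 0 of the 6 genes called higher in Ncr1Cre that have an entry held them. A match is a description of these letters and does not show binding.

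The genes that define NK cells were low in all 4 libraries, and genes of other uterine cells were far higher, so the data go against a label of pure NK cells. A list of 16 NK-cell markers, 9 of them among the 45 genes, summed to 59.0 and 62.7 FPKM in the Ncr1Cre libraries, against 40.9 and 40.8 FPKM in the control libraries. Of the 16, 10 lay above control without overlap and 0 below, while Ncr1, Klrb1c, Klrd1, Klre1, Gzma and Ccl5 overlapped. Over all 21993 genes 33.5% lay above control without overlap. All genes together summed to 460108 and 468192 FPKM in Ncr1Cre, against 384852 and 396770 FPKM in control. The 12 genes of decidual stroma and fibroblasts summed to 14732 and 14737 FPKM in Ncr1Cre, against 32945 and 33493 FPKM in control. Of the 12, 11 were called lower, where 17.6% of all genes tested were. The remaining gene, Prl8a2, was called higher, with 21.9 and 24.7 FPKM in Ncr1Cre, against 3.35 and 4.12 FPKM in control. The 8 epithelial genes summed to 2027 and 2039 FPKM in Ncr1Cre, against 539 and 516 FPKM in control. All 8 were called higher, where 30.9% of all genes tested were. Of the other lists, trophoblast genes summed to 938 and 1061 FPKM in Ncr1Cre, against 312 and 354 FPKM in control. Erythroid genes reached 666 and 784 FPKM in Ncr1Cre, against 69.2 and 77.3 FPKM in control. The stromal and smooth-muscle sums were lower in Ncr1Cre, and the sums of the other lists were higher there. Macrophage and dendritic cell genes summed to 102 and 101 FPKM in Ncr1Cre, against 29.6 and 32.1 FPKM in control. All 13 lay above both control libraries in both Ncr1Cre libraries, as did 33.5% of all 21993 genes. None of these 13 was at 0 in every library. The 7 T-cell genes found summed to between 0.750 and 1.39 FPKM in any library, and 0 of them could be tested. In such bulk samples fewer cells of a type and less RNA per cell cannot be told apart, and this holds for every value that follows. The part of the other cell types in the differences between genotypes was not tested.

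**Figure D1:**
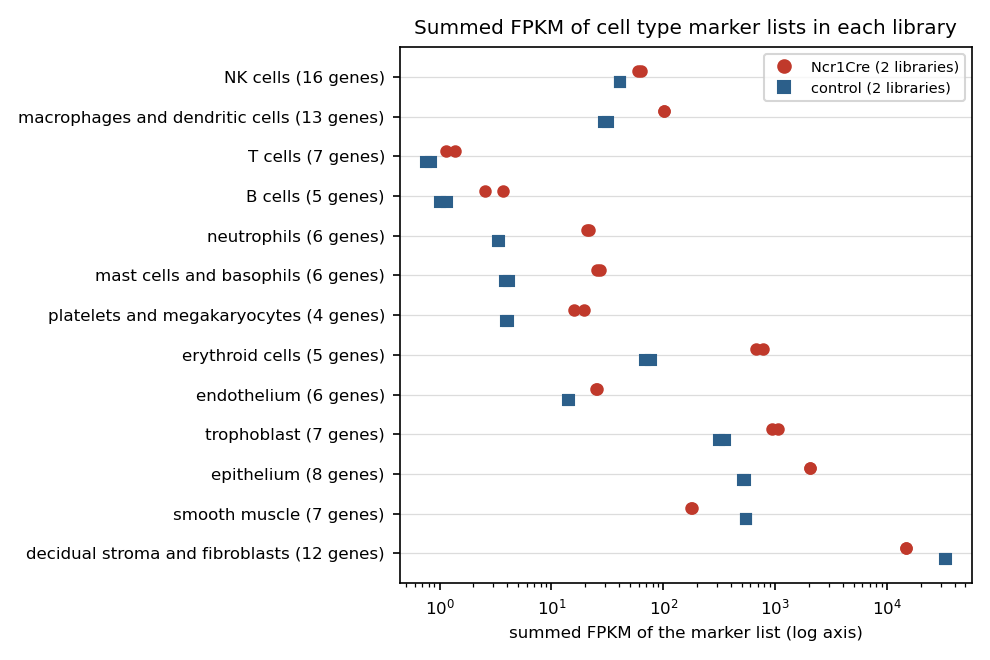
Summed FPKM of 13 cell type marker lists (log axis), with 1 point per library, Ncr1Cre as circles drawn above control as squares. The NK-cell list lies between 40.8 and 62.7 FPKM in all 4 libraries, far left of the stromal list at 14732 to 33493 FPKM, and the genotypes overlap in 0 of the 13 lists.

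The FPKM steps of genes with few fragments gave an estimated depth of 26000000 and 22660000 fragments for Ncr1Cre, against 38500000 and 20950000 fragments for control, at which 1 fragment on 1 kb of transcript is worth 0.0260 to 0.0477 FPKM. These totals made 31.7% to 34.9% of the low values whole within 0.02 fragments, so they are estimates and served for no test. Over all genes, 5709 of the 11762 tested (mean of at least 1 FPKM) were called by limma at an adjusted p under 0.05, with 3638 higher and 2071 lower in Ncr1Cre. The median log2 fold change of all genes tested was 0.11. Rescaling the libraries to 1 median gave 2662 higher and 3037 lower, and quantile normalization 2615 and 3032, which took the share of higher calls to 46.7% and 46.3% against 63.7% without rescaling.

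Most of the 45 genes stood below 1 FPKM. Of the Ncr1Cre libraries, replicate 1 had 26 such genes and replicate 2 had 24, and each control library had 31. Of the 45, 22 were below 1 FPKM in every library, 12 reached 1 FPKM in every library and 3 reached 5 FPKM in every library (Nfil3, Il2rb and Id2). At least 1 library was listed at 0 for 6 of them. The median gene of the set lay at percentile 45.2 and 45.8 of all 21993 genes in Ncr1Cre, against 44.1 and 44.3 in control. The whole set summed to 153 and 153 FPKM in Ncr1Cre, against 132 and 131 FPKM in control, and Nfil3 was the largest part of each sum. Without it the sums were 96.6 and 100.7 FPKM in Ncr1Cre, against 56.2 and 58.2 FPKM in control.

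**Figure D2:**
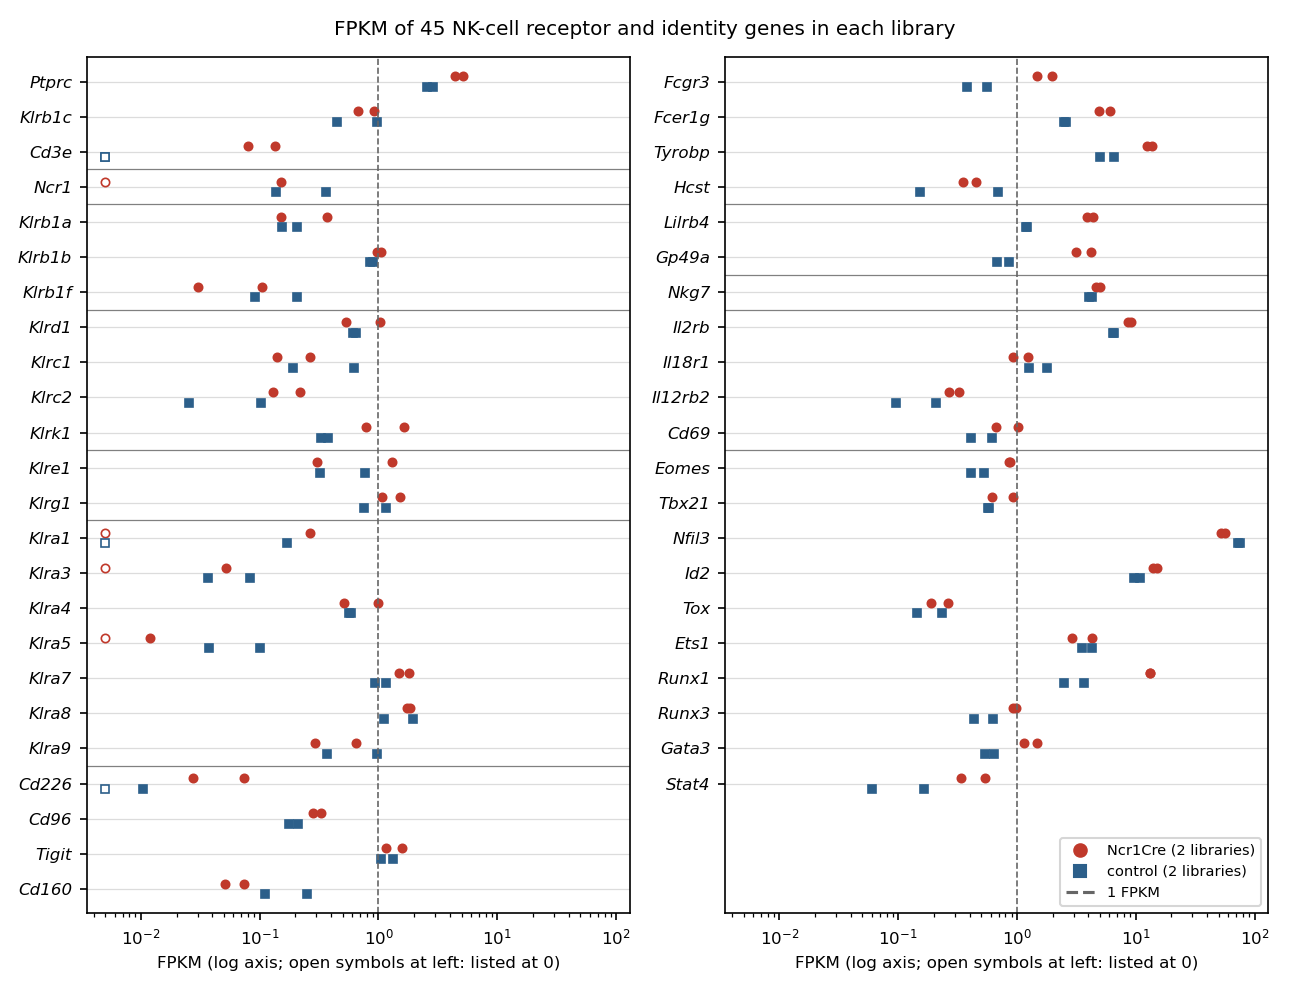
FPKM of the 45 genes in each library on a log axis, with Ncr1Cre as red circles above control as blue squares, open symbols for values listed at 0, the dashed line at 1 FPKM and solid lines between groups of like role. Most points lie left of 1 FPKM, and Nfil3 at 52.6 to 76.1 FPKM lies farthest right.

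Between the genotypes, 17 of the 45 genes had a mean of at least 1 FPKM and could be tested, and the other 28 are given as values. Of the 17, 9 were called higher in Ncr1Cre (limma, adjusted over all 11762 genes), where 30.9% of all genes tested were. They were Ptprc, Fcgr3, Fcer1g, Tyrobp, Lilrb4, Gp49a, Il2rb, Id2 and Runx1. Only Nfil3 was called lower, where 17.6% of all genes tested were. The median log2 fold change of the 17 was 0.40, beside 0.11 over all genes tested, and 13 of the 17 lay above that median and 4 below it. Fcgr3 and Gp49a were below 1 FPKM in both control libraries and passed the filter through their Ncr1Cre values. The number called higher was 7 after rescaling to 1 median and 8 after quantile normalization, and Nfil3 was the 1 lower call in both.

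Without a test, both Ncr1Cre libraries lay above both control libraries for 24 of the 45 genes (33.5% of all 21993 genes did so) and below them for 4 (20.0% of all genes), and 17 overlapped. The same count after rescaling to 1 median was 20 above and 6 below, and after quantile normalization 17 above and 9 below. The shares of all genes were not counted after either rescaling, so these counts cannot be read against the shares just given. Among the 17 tested genes 11 lay above and 2 below without overlap, beside 46.4% and 29.9% of all genes tested. With 2 libraries against 2 an exact permutation test of a single gene cannot pass a threshold of 0.05.

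**Figure D3:**
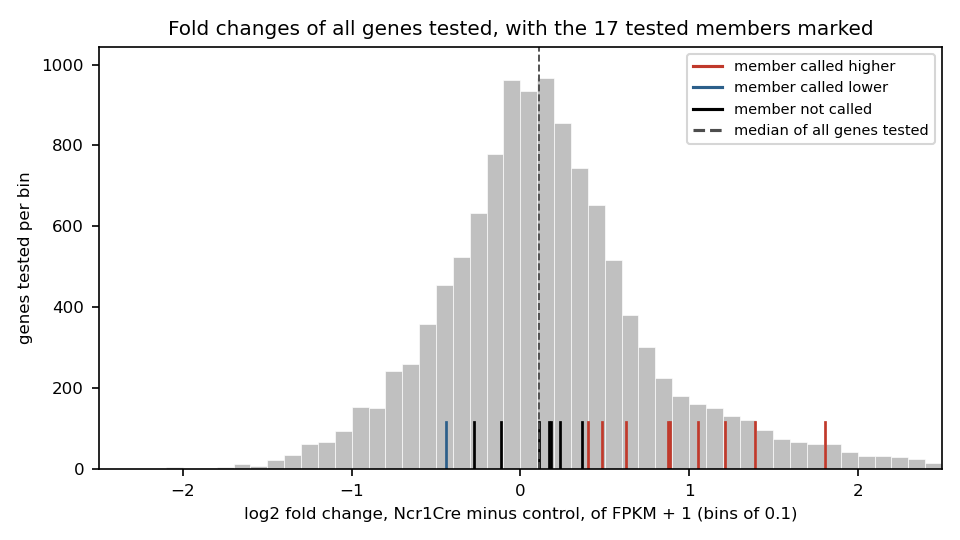
Number of genes tested per bin of 0.1 in log2 fold change (Ncr1Cre minus control, of FPKM + 1) between -2.5 and 2.5, with 74 genes outside that range not drawn, short lines for the 17 tested receptor and identity genes and a dashed line at the median of all genes, 0.11. The lines run from Nfil3 at -0.44 to Runx1 at 1.81, and 2.52% of all genes tested had a fold change as high as that of Runx1 or higher.

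Of the 3 genes behind the sort, only Ptprc could be tested. Ptprc encodes CD45, the phosphatase carried by leukocytes, and stood at 4.39 and 5.16 FPKM in the Ncr1Cre libraries, against 2.89 and 2.57 FPKM in the control libraries. It was higher in Ncr1Cre (log2 fold change 0.63, SE 0.12, adjusted p = 0.0103), but its adjusted p was 0.0520 without control replicate 2. Klrb1c encodes NK1.1, the other positive marker of the sort, and had 0.924 and 0.673 FPKM in Ncr1Cre, against 0.449 and 0.973 FPKM in control. The genotypes overlapped, and these values rest on roughly 19.5 to 30.7 estimated fragments per library. Cd3e, a chain of the T-cell receptor complex and the negative marker of the sort, had 0.0796 and 0.134 FPKM in Ncr1Cre and was listed at 0 in both control libraries. The Cd3e groups did not overlap, but the Ncr1Cre values correspond to an estimated 3.02 and 4.44 fragments, and with no filter on low values its adjusted p was 0.0508. The gene of the leukocyte marker was 1.75-fold higher by mean FPKM in Ncr1Cre while that of the NK marker stayed under 1 FPKM in every library.

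Ncr1 itself, the gene of the activating receptor NKp46 and the driver of Cre, had listed values of 0 and 0.152 FPKM in Ncr1Cre libraries, against 0.136 and 0.359 FPKM in the control libraries. That is an estimated 0 and 5.08 fragments in Ncr1Cre, against 7.73 and 11.1 in control. The genotypes overlapped in level, and the gene was too low to be tested. By the mean of all 4 libraries the driver gene ranked 37 of the 45.

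The NKR-P1 receptors, lectin-like receptors whose ligands are Clr proteins on neighbouring cells, stood at about 1 FPKM or below. Klrb1b, an inhibitory member, was highest with 1.05 and 0.976 FPKM in Ncr1Cre, against 0.898 and 0.847 FPKM in control. Klrb1a, an activating member, had 0.368 and 0.152 FPKM in Ncr1Cre, against 0.153 and 0.206 FPKM in control. Klrb1f, also classed as activating, had 0.104 and 0.0300 FPKM in Ncr1Cre, against 0.0913 and 0.208 FPKM in control. Klrb1b did not overlap between genotypes, by a narrow margin, and the other 2 did. Of the 50-base stretches of Klrb1b transcripts 27.2% also occur in another gene, so its reads could have been split between loci.

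Klrd1 encodes CD94, which pairs with NKG2 chains to read the non-classical class I molecule Qa-1. It had 0.531 and 1.04 FPKM in Ncr1Cre, against 0.615 and 0.643 FPKM in control. The inhibitory partner NKG2A (Klrc1) had 0.139 and 0.263 FPKM in Ncr1Cre, against 0.619 and 0.190 FPKM in control. The activating partner NKG2C (Klrc2) had 0.128 and 0.218 FPKM in Ncr1Cre, against 0.103 and 0.0252 FPKM in control. Klrd1 and Klrc1 overlapped, and Klrc2 did not, at under 6 estimated fragments in each library. Klrc1 shares 38.6% of its 50-base stretches with other genes, Klrc2 above all, so their separate values are uncertain. Klrk1 encodes NKG2D, the activating receptor of stress-induced ligands, and had 0.789 and 1.64 FPKM in Ncr1Cre, against 0.372 and 0.329 FPKM in control. Both Ncr1Cre libraries lay above control, 3.46-fold by mean FPKM, but they differed from each other by more than the lower of them differed from control. Its mean fell short of the filter, and with no filter its adjusted p was 0.0649.

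Klre1, a lectin-like receptor that pairs with other chains of its family, had 0.306 and 1.29 FPKM in Ncr1Cre, against 0.765 and 0.321 FPKM in control. Klrg1, an inhibitory receptor of cadherins found on mature NK cells, had 1.52 and 1.07 FPKM in Ncr1Cre, against 0.752 and 1.15 FPKM in control. Both genes overlapped between genotypes. Klrg1 did not pass the test, with a log2 fold change of 0.24 and a 95% interval from -0.19 to 0.66 (adjusted p = 0.292).

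The 7 Ly49 receptors, which read classical MHC class I, summed to 5.20 and 4.45 FPKM in the Ncr1Cre libraries, against 4.16 and 3.91 FPKM in the control libraries. Only Klra7 and Klra8 could be tested, and 0 of them were called. Klra8 encodes Ly49H, an activating receptor that binds a protein of cytomegalovirus, and had 1.86 and 1.74 FPKM in Ncr1Cre, against 1.94 and 1.11 FPKM in control. Its log2 fold change of 0.17 (95% interval from -0.30 to 0.64, adjusted p = 0.484) was -0.03 under quantile normalization. Klra7 encodes the inhibitory receptor Ly49G and had 1.80 and 1.50 FPKM in Ncr1Cre, against 1.16 and 0.941 FPKM in control. The Klra7 groups did not overlap, and its log2 fold change of 0.37 (95% interval from 0.04 to 0.69) missed the threshold after adjustment, at 0.0644. Klra4, the gene of the activating Ly49D, had 0.981 and 0.517 FPKM in Ncr1Cre, against 0.565 and 0.583 FPKM in control. Klra9, the gene of the inhibitory Ly49I, had 0.290 and 0.644 FPKM in Ncr1Cre, against 0.371 and 0.975 FPKM in control. Both overlapped between genotypes. Klra1, the gene of the inhibitory Ly49A, was listed at 0.266 and 0 FPKM in Ncr1Cre, against 0 and 0.170 FPKM in control. Klra3, the gene of the inhibitory Ly49C, was listed at 0 and 0.0515 FPKM in Ncr1Cre, against 0.0829 and 0.0368 FPKM in control. Klra5, the gene of Ly49E, was listed at 0.0119 and 0 FPKM in Ncr1Cre, against 0.0372 and 0.101 FPKM in control. Klra5 lay lower in Ncr1Cre without overlap, but at under 3 estimated fragments in every library. The Ly49 genes are close copies of each other: Klra8 shares 33.1%, Klra9 31.5%, Klra3 20.7% and Klra7 12.3% of their 50-base stretches with other genes, so their separate values are uncertain.

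Of the receptors that compete for nectins and nectin-like molecules, only Tigit could be tested. Tigit, which is inhibitory, had 1.56 and 1.16 FPKM in the Ncr1Cre libraries, against 1.04 and 1.33 FPKM in the control libraries. The groups overlapped and it did not pass the test (log2 fold change 0.11, 95% interval from -0.26 to 0.48, adjusted p = 0.570, and -0.11 under quantile normalization). Cd96, which shares a ligand with Tigit, had 0.283 and 0.328 FPKM in Ncr1Cre, against 0.212 and 0.175 FPKM in control. Cd226, which encodes the activating DNAM-1, had 0.0272 and 0.0741 FPKM in Ncr1Cre and was listed at 0.0104 and 0 FPKM in control. Cd96 and Cd226 lay higher in Ncr1Cre without overlap, Cd226 at under 2 estimated fragments per library. Cd160, a receptor of HVEM, had 0.0743 and 0.0511 FPKM in Ncr1Cre, against 0.249 and 0.110 FPKM in control. It was 1 of the 4 genes without overlap that were lower in Ncr1Cre. Pdzk1 overlaps Cd160 on the opposite strand in a newer annotation, by an extent that was not measured. Reads from the shared stretch cannot be told apart unless counting used strand.

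The Fc receptor and 2 of the 3 adaptors were higher in Ncr1Cre. Tyrobp encodes DAP12, the adaptor of activating Ly49 receptors and of many myeloid receptors, and had 12.5 and 13.6 FPKM in the Ncr1Cre libraries, against 4.98 and 6.61 FPKM in the control libraries. The groups did not overlap, and the gene rose 2.25-fold by mean FPKM (log2 fold change 1.06, SE 0.14, adjusted p = 0.00360). Fcer1g encodes the Fc receptor gamma chain, the adaptor of CD16 and NKp46, and had 4.91 and 6.09 FPKM in Ncr1Cre, against 2.59 and 2.48 FPKM in control. It rose 2.17-fold without overlap (log2 fold change 0.87, SE 0.12, adjusted p = 0.00447). Fcgr3 encodes CD16, the low-affinity IgG receptor of NK cells and macrophages, and had 1.48 and 1.96 FPKM in Ncr1Cre, against 0.381 and 0.555 FPKM in control. It rose 3.67-fold without overlap (log2 fold change 0.89, SE 0.14, adjusted p = 0.00672), and 9.58% of its 50-base stretches also occur in another gene, above all Fcgr2b. Hcst encodes DAP10, an adaptor of NKG2D, and had 0.352 and 0.451 FPKM in Ncr1Cre, against 0.151 and 0.692 FPKM in control. The 2 Hcst groups overlapped at under 6 estimated fragments per library. Tyrobp and Fcer1g differed between genotypes. Hcst was too low to be tested, so it cannot be set against them.

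The pair of leukocyte immunoglobulin-like receptors had some of the largest fold changes of the set. Lilrb4, an inhibitory receptor of myeloid cells and activated NK cells, had 4.33 and 3.90 FPKM in Ncr1Cre, against 1.22 and 1.18 FPKM in control. It rose 3.42-fold (log2 fold change 1.21, SE 0.11, adjusted p = 0.000982). Gp49a, its activating relative, had 4.20 and 3.16 FPKM in Ncr1Cre, against 0.680 and 0.865 FPKM in control. It rose 4.76-fold (log2 fold change 1.39, SE 0.15, adjusted p = 0.00186). Neither gene overlapped between genotypes. Their separate values are uncertain, because the identifier filed as Lilrb4 is in the newer annotation a transcript model that shares 96.6% of its 50-base stretches with other genes and overlaps the loci of both receptors.

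Genes of macrophages and dendritic cells were higher in the same Ncr1Cre libraries as Tyrobp, Fcer1g, Fcgr3, Lilrb4 and Gp49a, all of which myeloid cells express too. Cd14, a co-receptor of endotoxin on monocytes, had 37.4 and 33.6 FPKM in Ncr1Cre, against 6.90 and 7.09 FPKM in control. Cd68, a lysosomal protein of macrophages, had 22.7 and 24.2 FPKM in Ncr1Cre, against 5.01 and 4.83 FPKM in control. Csf1r, the receptor of macrophage colony-stimulating factor, had 12.5 and 14.7 FPKM in Ncr1Cre, against 5.41 and 5.35 FPKM in control. All 3 stood without overlap and were called higher. Of the 8 genes of that list that could be tested 7 were called higher, where 30.9% of all genes tested were. C1qc, among these 7, was below 1 FPKM in both control libraries and passed the filter through its Ncr1Cre values. Emr1, Mrc1, Aif1, Fcgr1 and Cx3cr1 of the same list were below 1 FPKM in every library and were not tested. The part of macrophages and dendritic cells in the rise of the adaptors and receptors was not tested. Mast cell and basophil genes, which share the gamma chain, summed to 25.3 and 27.2 FPKM in Ncr1Cre, against 3.83 and 4.19 FPKM in control. Hdc was the largest part of each sum, with 22.0 and 23.7 FPKM in Ncr1Cre, against 2.85 and 3.10 FPKM in control. Cpa3, Ms4a2, Mcpt8 and Fcer1a were below 1 FPKM in every library.

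Nkg7, a membrane protein of cytotoxic granules, ranked 6 of the 45 genes by mean level, with 5.05 and 4.64 FPKM in the Ncr1Cre libraries, against 4.03 and 4.28 FPKM in the control libraries. The groups did not overlap, but the gene did not pass the test (log2 fold change 0.18, 95% interval from -0.07 to 0.43, adjusted p = 0.189).

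Among the cytokine receptors, Il2rb was the highest and was higher in Ncr1Cre. Il2rb encodes the beta chain shared by the receptors of interleukins 2 and 15, and had 9.17 and 8.67 FPKM in Ncr1Cre, against 6.50 and 6.54 FPKM in control. It rose 1.37-fold (log2 fold change 0.40, SE 0.086, adjusted p = 0.0160), but the call was lost after rescaling to 1 median (adjusted p = 0.0723), after quantile normalization (0.0705) and without control replicate 1 (0.0714), control replicate 2 (0.0664) or Ncr1Cre replicate 1 (0.0660). Il18r1, the receptor chain that binds interleukin 18, had 1.24 and 0.921 FPKM in Ncr1Cre, against 1.26 and 1.79 FPKM in control. It lay lower in Ncr1Cre, narrowly without overlap, and did not pass the test (log2 fold change -0.27, 95% interval from -0.68 to 0.13, adjusted p = 0.212). Il12rb2, the signalling chain of the interleukin 12 receptor, had 0.323 and 0.267 FPKM in Ncr1Cre, against 0.0962 and 0.208 FPKM in control. Serbp1 overlaps Il12rb2 on the opposite strand in the newer annotation, so some of these low values could be its reads unless counting used strand. Cd69, an early activation marker that holds lymphocytes in tissue, had 0.665 and 1.02 FPKM in Ncr1Cre, against 0.621 and 0.411 FPKM in control. Both lay higher in Ncr1Cre without overlap and were too low to be tested.

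Of the 10 transcription factors 4 could be tested; Runx1 and Id2 were higher in Ncr1Cre, Nfil3 was lower and Ets1 was not called. Runx1, a RUNX factor used in many blood lineages and also in epithelia, had 13.2 and 13.2 FPKM in the Ncr1Cre libraries, against 3.69 and 2.50 FPKM in the control libraries. It rose 4.26-fold without overlap (log2 fold change 1.81, SE 0.16, adjusted p = 0.000977), the largest log2 fold change of the 17 tested genes. With 0.1 instead of 1 added to the FPKM its log2 fold change was 2.08, below that of Gp49a at 2.11. Gm26626 overlaps Runx1 on the opposite strand in the newer annotation. Epithelial genes were higher in the same libraries, with Epcam, an adhesion molecule of epithelia, at 122 and 121 FPKM in Ncr1Cre, against 27.7 and 29.4 FPKM in control. Their part in the Runx1 value was not tested.

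Nfil3, a basic leucine zipper factor needed early in the NK lineage, was by far the most abundant of the 45 genes, with 56.5 and 52.6 FPKM in Ncr1Cre, against 76.1 and 72.4 FPKM in control. It fell to 0.734 of the control mean without overlap (log2 fold change -0.44, SE 0.073, adjusted p = 0.00710). Its level was more than 10 times that of Ptprc in each of the 4 libraries. The stromal sums were lower in the same Ncr1Cre libraries, as given above, and their part in the Nfil3 value was not tested. Id2, which encodes an inhibitor of E proteins needed by all innate lymphoid cells, had 14.1 and 15.2 FPKM in Ncr1Cre, against 9.66 and 10.8 FPKM in control. It rose 1.43-fold without overlap (log2 fold change 0.48, SE 0.095, adjusted p = 0.0121), and the call was lost after rescaling to 1 median (adjusted p = 0.0534) and without control replicate 1 (0.0580). Ets1, which acts in several lymphocyte lineages, had 2.89 and 4.32 FPKM in Ncr1Cre, against 4.31 and 3.55 FPKM in control. Its groups overlapped (log2 fold change -0.11, 95% interval from -0.58 to 0.36, adjusted p = 0.644).

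The T-box factors that define the lineage were under 1 FPKM in all 4 libraries. Eomes had 0.865 and 0.881 FPKM in Ncr1Cre, against 0.528 and 0.409 FPKM in control. Tbx21, which encodes T-bet, had 0.924 and 0.621 FPKM in Ncr1Cre, against 0.584 and 0.565 FPKM in control. Neither overlapped between genotypes, the Tbx21 values by a small margin. Runx3, a RUNX factor of cytotoxic lymphocytes, had 0.930 and 0.980 FPKM in Ncr1Cre, against 0.625 and 0.435 FPKM in control. Gata3, used by innate lymphoid cells and T cells and also by trophoblast, had 1.48 and 1.15 FPKM in Ncr1Cre, against 0.537 and 0.639 FPKM in control. Stat4, which carries the signal of interleukin 12, had 0.336 and 0.534 FPKM in Ncr1Cre, against 0.0598 and 0.165 FPKM in control. These 3 did not overlap and were higher in Ncr1Cre, and 21.7% of the 50-base stretches of Stat4 also occur in another gene. Tox, needed for NK-cell development, had 0.261 and 0.189 FPKM in Ncr1Cre, against 0.144 and 0.233 FPKM in control, which overlap. With no filter on low values 4 of these genes were called higher, namely Eomes (adjusted p = 0.0279), Gata3 (adjusted p = 0.0245), Runx3 (adjusted p = 0.0455) and Stat4 (adjusted p = 0.0442). Tbx21 (adjusted p = 0.305) and Tox (adjusted p = 0.628) were not called in that limma fit. Over all genes it called 3954 of 17500 higher.

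**Figure D4:**
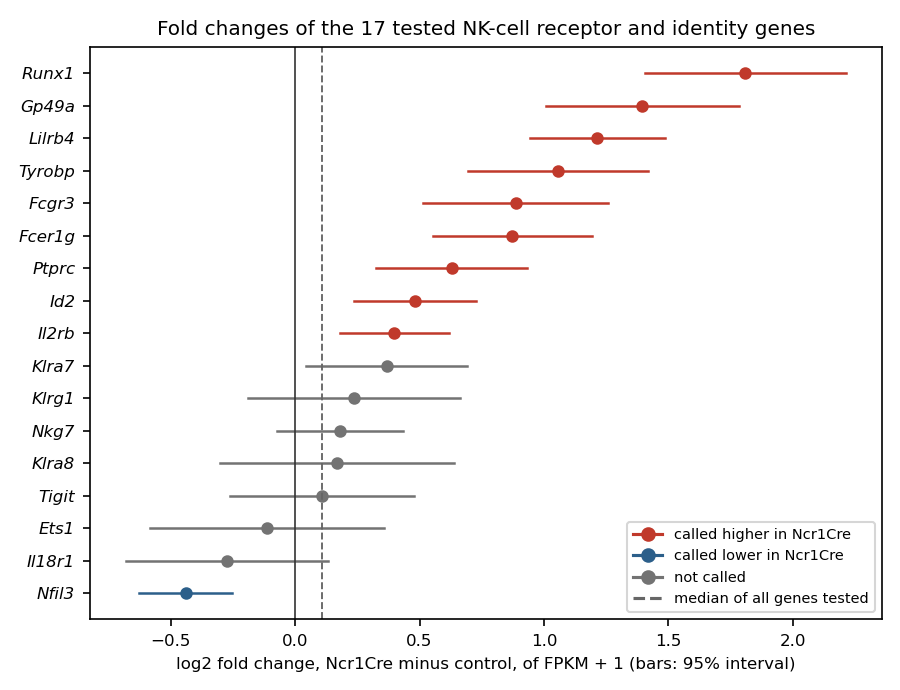
Log2 fold change (Ncr1Cre minus control, of FPKM + 1) of the 17 tested genes, each point with its 95% interval, red for those called higher, blue for the one called lower and grey for those not called; the dashed line is the median of all genes tested, 0.11. The points run from Nfil3 at -0.44 to Runx1 at 1.81, and the myeloid-shared genes Gp49a, Lilrb4, Tyrobp, Fcgr3 and Fcer1g lie between 0.87 and 1.39.

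Set against Ptprc within each library, the order of the genotypes changed for several genes. Both quantities are FPKM, so the ratio compares levels per length. The ratio of Runx1 to Ptprc was 3.0 and 2.57 in the Ncr1Cre libraries, against 1.28 and 0.975 in the control libraries. For Lilrb4 it was 0.987 and 0.756 in Ncr1Cre, against 0.424 and 0.460 in control. Both stayed above control without overlap. The ratio of Il2rb was 2.09 and 1.68 in Ncr1Cre, against 2.25 and 2.55 in control, and that of Nkg7 was 1.15 and 0.899 in Ncr1Cre, against 1.40 and 1.67 in control. These 2 were below control per unit of Ptprc, while their FPKM were above it. Id2, at 3.20 and 2.96 in Ncr1Cre against 3.35 and 4.19 in control, did the same, as did Klrb1b and Cd96. The genes named in this paragraph are a selection from the 45. The ratio of Eomes, 0.197 and 0.171 in Ncr1Cre against 0.183 and 0.159 in control, overlapped between genotypes. That of Tyrobp, 2.85 and 2.63 in Ncr1Cre against 1.72 and 2.58 in control, did not, by a narrow margin. Ptprc is expressed by all leukocytes, so the ratio is not a level per NK cell.

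Other genes of NK-cell biology, in 5 lists, were called in both directions. Of the 123 genes found, 65 could be tested. Of these 65, 25 were called higher and 13 lower in Ncr1Cre, where 30.9% and 17.6% of all genes tested were. The counts of each list are to be read against the same shares. The median log2 fold change was 0.19 (0.11 over all genes tested). Among those called higher, Inpp5d, Itgam and Il2rg, and also Syk, Lat2 and Ahr, chosen after their values were seen, were below 1 FPKM in both control libraries and passed the filter through their Ncr1Cre values. Of 15 tested signalling genes 7 were higher and 2 lower. Lyn, a Src-family kinase of myeloid and B cells as well, had 6.01 and 6.66 FPKM in Ncr1Cre, against 2.01 and 2.17 FPKM in control (log2 fold change 1.25, adjusted p = 0.000856). Ptpn6, which encodes the phosphatase SHP-1 that inhibitory receptors recruit, had 5.66 and 5.50 FPKM in Ncr1Cre, against 1.84 and 2.0 FPKM in control (1.17, adjusted p = 0.000856). Inpp5d, the lipid phosphatase SHIP1, and Plcg2, a phospholipase downstream of activating receptors, rose as well, with log2 fold changes of 1.41 and 1.01. The 2 lower ones, chosen after their values were seen, were the phosphatase Ptpn11, with 13.7 and 13.3 FPKM in Ncr1Cre against 21.5 and 20.8 FPKM in control, and the kinase Fyn, with 15.2 and 14.1 FPKM in Ncr1Cre against 21.0 and 19.4 FPKM in control.

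Of 6 tested NK receptors outside the set, 4 were higher and 0 lower in Ncr1Cre. All 4 are integrin chains: Itga1, a collagen receptor of tissue-resident NK cells, had 5.36 and 6.25 FPKM in Ncr1Cre, against 2.41 and 2.17 FPKM in control (log2 fold change 1.05, adjusted p = 0.00192). Itgam, Itga2 and Itgb2 rose by 0.76, 0.45 and 0.47 on the same log2 scale. Itgam and Itgb2 are also integrins of myeloid cells, whose marker genes were higher in the same libraries.

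Of 15 tested genes of the interleukin 2, 12, 15 and 18 pathways, 4 were higher and 1 lower, no larger shares than the 30.9% and 17.6% of all genes tested. The lower one, Jak1, a kinase used by many cytokine receptors, had 42.9 and 41.4 FPKM in Ncr1Cre, against 82.9 and 85.5 FPKM in control (log2 fold change -0.98, adjusted p = 0.000478). Its lymphoid partner kinase Jak3 had 10.2 and 7.92 FPKM in Ncr1Cre, against 2.40 and 2.23 FPKM in control (1.59, adjusted p = 0.000971). Il2rg, the common gamma chain that pairs with Il2rb, had 2.55 and 2.86 FPKM in Ncr1Cre, against 0.678 and 0.528 FPKM in control (1.21, adjusted p = 0.00138). The feedback inhibitor Cish had 14.7 and 14.9 FPKM in Ncr1Cre, against 8.04 and 7.45 FPKM in control (0.85, adjusted p = 0.00138).

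Of 17 tested lymphoid transcription factors outside the set, 4 were higher and 8 lower. Maf had 26.8 and 26.3 FPKM in Ncr1Cre, against 55.0 and 48.1 FPKM in control (log2 fold change -0.93, adjusted p = 0.00131). Foxo1 had 9.80 and 10.8 FPKM in Ncr1Cre, against 16.2 and 15.9 FPKM in control (-0.59, adjusted p = 0.00449). Irf8, a factor of NK cells and of dendritic cells, had 12.3 and 11.6 FPKM in Ncr1Cre, against 6.33 and 5.58 FPKM in control (0.90, adjusted p = 0.00191). The median of this list was -0.31, the only one of the 5 lists with a median below 0.

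Of 12 tested ligands of NK receptors, 6 were higher and 2 lower in Ncr1Cre. H2-K1 and H2-D1 are classical class I genes that Ly49 receptors read. H2-K1 had 788 and 766 FPKM in Ncr1Cre, against 459 and 431 FPKM in control (log2 fold change 0.80, adjusted p = 0.000762). H2-D1 had 1020 and 978 FPKM in Ncr1Cre, against 672 and 617 FPKM in control (0.63, adjusted p = 0.00204). Cdh1, which encodes E-cadherin, the ligand of Klrg1 and an epithelial gene, had 56.6 and 54.4 FPKM in Ncr1Cre, against 13.1 and 13.0 FPKM in control (2.01, adjusted p = 0.000149). Ulbp1, a ligand of NKG2D, had 1.42 and 1.59 FPKM in Ncr1Cre, against 3.52 and 3.32 FPKM in control (-0.82, adjusted p = 0.00317), while its receptor gene Klrk1 lay higher in Ncr1Cre without overlap, as given above. The other lower one, chosen after its value was seen, was Tnfrsf14, which encodes HVEM, the ligand of Cd160 (log2 fold change -0.40).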

How the data were processed

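RNA sequencing of 2 Ncr1Cre and 2 control libraries was used as 1 FPKM value per gene and library. The FPKM values were made by the authors with Cufflinks on mm9, per the submitters' processing notes (no version). Aligner, annotation, strand setting and handling of reads with several matches: not given in the sources used here. The floxed gene, 1 gene of a list and the results that need them are not reported here. Groups and replicate numbers came from the labels. Members, gene lists and the rule for named genes (all 45 members, and up to 4 called genes per list with the smallest adjusted p) were chosen with earlier results of these data known, and no pattern is independent support.

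The test was limma 3.58.1 in R 4.3.3 with an intensity trend on log2(FPKM + 1), for the 11762 genes averaging at least 1 FPKM, two-sided, adjusted by Benjamini-Hochberg over all of them and called under 0.05. Fold changes on this scale understate those of low genes. The fit was tested on simulated data. The mean and SD of a gene listed at 0 in a library are not given, since an exact 0 can be a failed estimate. Depth was estimated from steps of low FPKM. Over genes with enough fragments the replicates differed by more than sampling noise (median chi-square 2.11 in Ncr1Cre and 2.06 in control, against 0.455). Shares of 50-base stretches and overlaps came from GENCODE M21, where 44 of the 45 identifiers were found, and promoters from RefSeq on GRCm38.p6. As the values are on mm9, no coordinates go with them. Alternatives were a pseudocount of 0.1, no filter, a minimum mean of 5 FPKM, median rescaling, quantile normalization, a replicate block and leaving out each library.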

Additional observations from a re-analysis of the deposited data

How the results depend on the processing

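The 9 genes called higher were 4 with a mean of at least 5 FPKM (5 tested), 7 and 8 after median rescaling and quantile normalization, 13 with no filter (45 tested) and 7 to 9 without 1 library; 1 was lower throughout. Pathway genes called higher were 11 with a mean of at least 5 FPKM, against 25, and 18 to 23 without 1 library; those called lower were 20 after median rescaling, against 13, and 8 to 12 without 1 library, with 8 without control replicate 1. Fewer genes tested lower the counts at 5 FPKM, and the other causes were not tested. Over all genes 3954 of 17500 were called higher with no filter and 2536 of 7516 at 5 FPKM. All genes called numbered 4092 to 5034 without 1 library, against 5709, assuming that the lone library varies as the other genotype does. Members without overlap numbered 28 (24 above and 4 below control, beside 33.5% and 20.0% of all 21993 genes), and 34 to 41 without 1 library, when 3 libraries overlap less easily. The share of all genes was not counted for 3 libraries, so 34 to 41 cannot be read as a result about the set. Calls lost are given beside Ptprc, Il2rb and Id2. With the replicate block 6004 genes were called, and 9 and 1 of the set; replicate differences correlated at 0.16 between genotypes, and the labels share only a number. At 2 libraries per genotype, values well below 1 FPKM rest on few fragments.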
